A study of Mus musculus with 360 samples.

Results

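Rn45s is the mouse gene name given to the precursor of ribosomal RNA, and it was 1 of 24781 genes in a table of molecule counts from 360 single cells. It was chosen by its measured level in these same cells, as the row that held the most molecules, so its levels and its spread are given as a description and carry no test. The cells were C1498, a mouse line labelled as acute myeloid leukemia. They were warmed for 10 min at 45 °C. Control cells stayed at 37 °C, and all were filmed under a microscope. An automated imaging and picking instrument took single cells 1 h before heating or 1, 5, 10 or 15 h after it.

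Before heating, 11 cells were taken for the 37 °C arm and 6 for the 45 °C arm. The later 37 °C groups had 11, 6, 6 and 11 cells (1, 5, 10 and 15 h). Of the 309 cells picked after 45 °C, 13 were from 1 h, 52 from 10 h and 21 from 15 h, and the rest, 61.9% of the series, from 5 h. The 51 cells of the 37 °C groups and of the 45 °C group before heating are called unheated here. No treatment other than temperature is named, and all cells come from 1 line. The labels name no culture, so each group counts as 1 sample, and the spread below is between cells of a group. Intervals are exact 95% intervals that cover counting error only, of molecules or, for shares of cells, of cells.

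Ribosomal RNA is made by RNA polymerase I in the nucleolus as 1 long precursor, which is then cleaved and chemically modified to give the 18S, 5.8S and 28S RNAs of the ribosome. Most ribosomal RNA carries no poly(A) tail, and the rate at which the precursor is made follows the growth state of the cell and responds to many stresses. The RNA here was fragmented by heat and then copied from a primer ending in a run of T, so a molecule counted as Rn45s had to offer a site for such a primer. The counts do not tell the precursor from the mature RNAs cut out of it.

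No sequence or coordinates of Rn45s were at hand. A second gene of the table, Mir6236, is annotated as a microRNA, while its sequence is known to match 28S ribosomal RNA. Of the genes ranked by their likeness to Rn45s over heated cells at 5 and 10 h, it stood first, as described further on.

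The labelled cell type was checked on markers in the unheated cells. The 3 leukocyte genes were present at 1954 CPM in sum (CPM is the share of all counted molecules, times 1000000), led by Coro1a at 1144 CPM and Ptprc, which encodes CD45, at 501.5 CPM. Of 8 myeloid genes, Lyz2 and Mpo among them, 0 had a molecule in these cells. Of 8 genes of T and NK cells, 5 were detected, at 437 CPM in sum. Of 3 B cell genes 0 were detected, and the 3 erythroid genes summed to 1.57 CPM. The markers thus show blood cells with Cd3e and Cd3g expressed, and the defining myeloid genes were at 0.

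Rn45s took up more molecules than any other gene in 360 of 360 cells. Counted as UMIs (unique molecular identifiers, 1 per molecule), it made up 13.2% of all UMIs of the series. It stood above the next gene by 1.26-fold to 99.9-fold, with a median of 10.8-fold. These are counts and were not divided by gene length. Of the 360 values, 259 (71.9%) were not whole numbers, against 5.30% of all values above 0 in the table, but the fractional parts held only 0.00901% of the Rn45s UMIs.

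Both arms had similar shares of Rn45s before heating. Cells of the 37 °C arm then had a lowest share of 8.12%, a median of 11.002% and a highest of 15.7%. Cells of the 45 °C arm before heating ran from 6.35% over a median of 11.8% to 15.9%. Both ranges overlap almost wholly, and the summed shares of the groups were 11.4% and 11.9% (log2 ratio 0.06, 0.04 to 0.08). In this pair 7.11% of genes were at least 2-fold apart, 2.58% of all measured genes being higher in the 45 °C arm and 4.52% lower.

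After mock heating at 37 °C, the share at 1 h ran from 8.32% over a median of 10.6% to 18.7%. At 5 h the 6 cells ran from 11.5% over 16.1% to 21.4%, the highest median of any group. At 10 h the 6 cells ran from 5.90% over 11.6% to 15.6%, and at 15 h the 11 cells ran from 8.04% over 11.1% to 17.7%. The control group at 5 h thus stood highest among the controls, at a summed share of 15.96% and a log2 ratio of 0.49 over the 37 °C cells before heating (0.47 to 0.51). This is further from 0 than any ratio of heated cells to their control, given below. Over all 51 unheated cells the share lay between 5.90% and 21.4%, with a median of 11.7%.

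After heating at 45 °C, the middle of each group stayed close to these values, while the ends reached further out at the later times. At 1 h the 13 cells ran from 9.75% over a median of 11.2% to 19.4%, all of them inside the unheated range. At 5 h the cells ran from 6.04% over 12.4% to 79.6%. The 52 cells at 10 h ran from 2.92% over 9.36% to 85.9%, and the 21 cells at 15 h from 3.75% over 12.8% to 88.3%. All 3 later groups therefore reached shares far above any unheated cell, and those at 10 and 15 h also reached below the lowest.

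**Figure D1:**
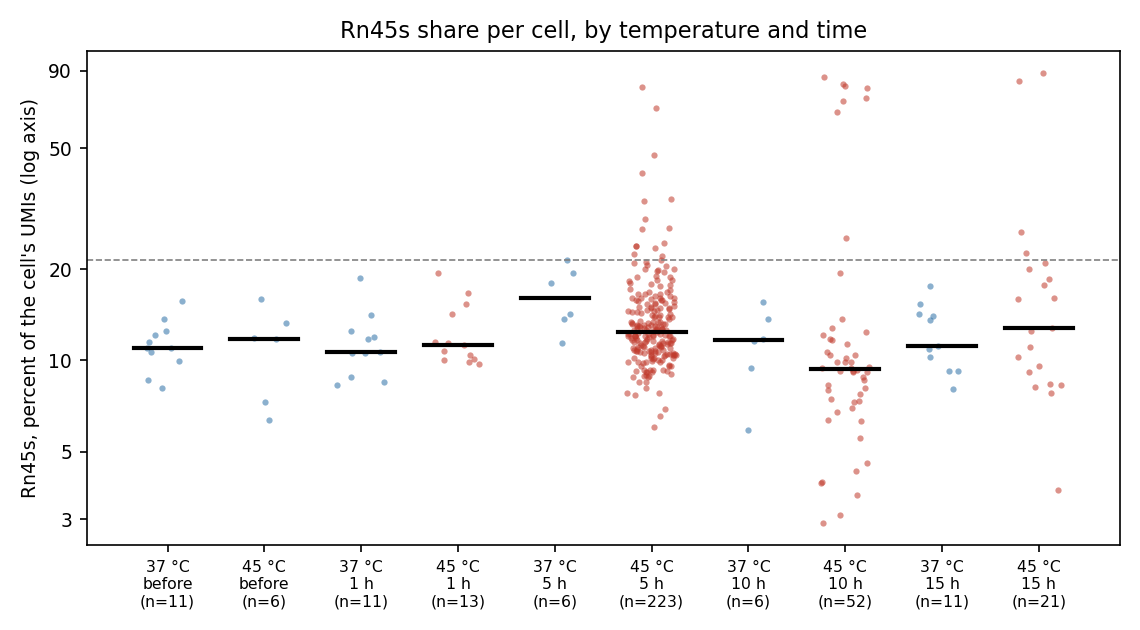
Share of UMIs that were Rn45s (percent, vertical log axis) in each of the 360 cells (points), by temperature and time group, with the median of each group as a bar (unheated groups in blue, heated in red). The dashed line marks the highest unheated cell, 21.4%. Group medians lie between 9.36% and 16.1%, while single heated cells at 5, 10 and 15 h reach 79.6%, 85.9% and 88.3%.

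Ordered by their median, the groups ran from 45 °C 10 h, the lowest, through 37 °C 1 h, 37 °C before, 37 °C 15 h, 45 °C 1 h, 37 °C 10 h, 45 °C before, 45 °C 5 h and 45 °C 15 h to 37 °C 5 h. In 9 of 9 steps between neighbours, the difference in median was smaller than the smaller SD over cells of the 2 groups. Steps in a sorted order are small by construction, and the SD at 45 °C 10 h and 15 h rested on a few cells. The largest step, 3.27 percentage points, was the last one.

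Comparing summed UMIs of 45 °C and 37 °C cells of the same time, Rn45s differed by less than 2-fold at every time. At 1 h it made up 13.3% of UMIs against 11.6% (log2 ratio 0.19, 0.17 to 0.20), when 7.74% of 5273 measured genes were at least 2-fold apart in either direction. Genes counted as measured had 20 or more UMIs over the pair of groups and reached 10 CPM in 1 of the pair. At 5 h it made up 13.6% against 15.96% (-0.23, -0.25 to -0.22), when 21.5% of genes were 2-fold apart.

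At 10 h Rn45s made up 10.6% against 11.8% (-0.16, -0.18 to -0.13), when 19.1% of genes were 2-fold apart. At 15 h it made up 15.5% against 13.04% (0.25, 0.24 to 0.27), when 6.18% were. Of all measured genes, 67.4%, 74.002%, 81.9% and 59.4% lay further from 0 than Rn45s at 1, 5, 10 and 15 h. In the pair before heating 88.8% did, more than at any time after heating. For the 37 °C groups over the 37 °C cells before heating, 92.9%, 34.3%, 91.9% and 65.5% did at 1, 5, 10 and 15 h. Unheated groups alone thus spanned a wider range than the heated ones over their controls. Most genes have far fewer UMIs than Rn45s, so their ratios carry more counting error. At 5 h the ratio equalled the median of all measured genes, which was -0.23.

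The direction at 5 h depended on the control. Against all 51 unheated cells, at a summed share of 12.5%, the heated groups stood at log2 ratios of 0.09, 0.12, -0.24 and 0.31 at 1, 5, 10 and 15 h. The heated cells at 5 h were therefore below their own control and above the unheated cells as a whole. At 10 and 15 h the direction was the same by both controls.

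Since Rn45s takes so many UMIs, a shift in it moves the share of every other gene. Between 45 °C and 37 °C this amounted to log2 shifts of 0.03, -0.04, -0.02 and 0.04 at 1, 5, 10 and 15 h. Leaving Rn45s out of the totals changed the number of genes at least 2-fold apart from 408 to 379 at 1 h, from 1630 to 1732 at 5 h and from 1230 to 1228 at 10 h, and gave 427 at 15 h.

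Absolute UMIs of Rn45s per cell are given beside the share, since a share also moves with the other genes. They still depend on the depth of the library. Unheated medians lay between 3352 UMIs (37 °C 10 h) and 6378 UMIs (37 °C 5 h), and single unheated cells between 624 and 13099 UMIs. At 1 h after heating the cells ran from 1246 over a median of 3147.5 to 14114 UMIs, against 1825 over 3994 to 7907 UMIs in the control. The ranges overlap, and the highest cell of this pair was a heated one.

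At 5 h the heated cells ran from 268.5 over 3764.5 to 16330 UMIs, against 3966 over 6378 to 9948 UMIs in the control. At 10 h they ran from 157.5 over 1849 to 5075.5 UMIs, against 1075 over 3352 to 5693 UMIs. At 15 h they ran from 1076.5 over 3691.5 to 13571 UMIs, against 624 over 4135 to 13099 UMIs. The heated median was thus the lower one at each time, and lowest of all groups at 10 h, although the ranges overlap throughout.

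The log2 ratio of these medians was -0.34, -0.76, -0.86 and -0.16 at 1, 5, 10 and 15 h, which at 5 and 10 h is 1.69-fold and 1.81-fold lower. Before heating the 45 °C arm already stood at -0.45. The UMIs of all other genes moved beside it, with log2 ratios of -0.19, -0.29, -0.68 and -0.14 after heating and -0.30 before. At 10 h the median cell had 16571 other UMIs against 26493 in the control, 1.599-fold fewer. The part of depth or of total RNA in the lower Rn45s count was not tested.

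**Figure D2:**
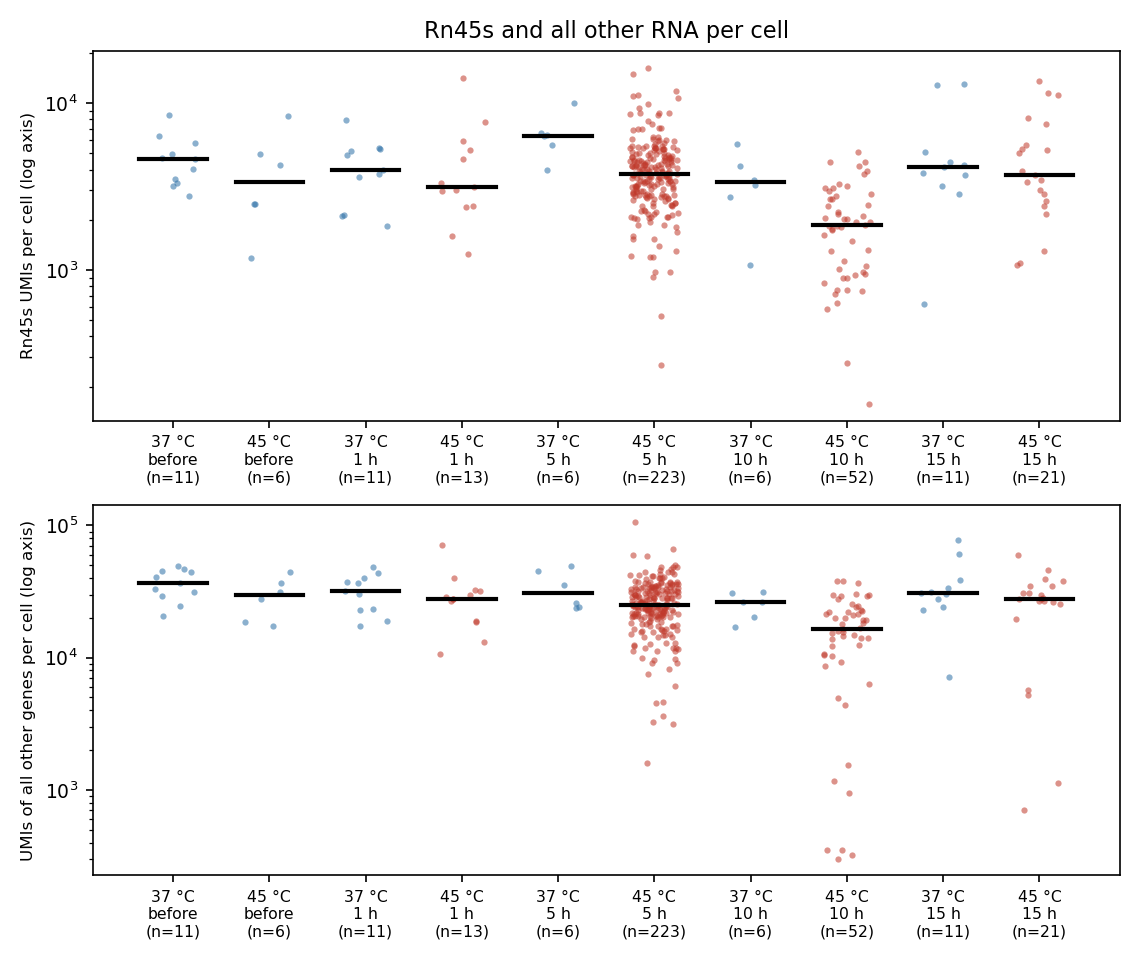
UMIs of Rn45s per cell and UMIs of all other genes per cell (log axes), for each cell of the 10 temperature and time groups, with medians as bars (unheated in blue, heated in red). Medians of Rn45s lie between 1849 (45 °C 10 h) and 6378 (37 °C 5 h), and the other UMIs reach down to 302 at 45 °C 10 h and 699 at 45 °C 15 h, below the lowest unheated cell at 7135.

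The main difference was in the spread between cells. The coefficient of variation (SD over mean) of the share lay between 19.1% and 32.7% in the 6 unheated groups and was 24.8% in heated cells at 1 h. It was 54.2% at 5 h, 130.8% at 10 h and 109.3% at 15 h. The counting error of Rn45s itself is small beside this, at 1.17% to 2.16%.

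With each cell thinned to 5000 UMIs, which left out 1 cell at 45 °C 5 h and 5 cells at 45 °C 10 h, the spread was again larger at 5, 10 and 15 h than in any unheated group. The coefficient of variation of thinned Rn45s counts was 18.6% to 33.8% in unheated groups and, by time, 25.4%, 54.4%, 121.5% and 109.3% in heated ones. The Fano factor (variance over mean) of Rn45s was 19.8 to 63.2 in unheated groups. In the heated groups it was 39.9, 212.3, 884 and 1232 at 1, 5, 10 and 15 h. The highest value was thus at 15 h by this measure and at 10 h by the coefficient of variation. Since the Fano factor grows with the mean, Rn45s is not ranked among other genes by it. The median gene had a coefficient of variation of 100% to 109.5% in unheated groups, counting error included, which is large for genes of few UMIs.

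Cells above the highest unheated share were found in the heated groups from 5 h on. At 1 h they were 0 of 13 (0% to 24.7%). At 5 h they were 15 cells (6.73%, 3.81% to 10.85%), at 10 h 8 of 52 (15.4%, 6.88% to 28.1%) and at 15 h 4 of 21 (19.05%, 5.45% to 41.9%). These intervals take the cells as independent draws and carry no information on differences between cultures, so the groups are not compared by them. At the other end, 8 of 52 cells at 10 h (15.4%) and 1 of 21 at 15 h (4.76%) lay below the lowest unheated cell, against 0 at 5 h.

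A set of 11 heated cells had more Rn45s than all other genes together. A line was drawn at a share of 50% after the values had been seen: the nearest cell below it stood at 47.4% and the nearest above it at 65.7%. Of these cells 2 were from 5 h (0.897% of the group), 7 from 10 h (13.5%) and 2 from 15 h (9.52%). Their Rn45s UMIs, 758 to 6987, all lay within the unheated range. A share above 50% means fewer other UMIs than Rn45s UMIs. With at most 6987 of the latter, their other UMIs, 302 to 3280, had to lie below the lowest unheated cell, at 7135.

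At 5 h, the highest cell had 6231 Rn45s UMIs and 1594 others (79.6%, 78.7% to 80.5%). Cell 86 of the same group had 6987 and 3280 (68.1%, 67.1% to 68.95%). These are Rn45s counts above their group's median of 3764.5.

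At 10 h, cell 17 had 2151 Rn45s UMIs and 352.5 others (85.9%, 84.5% to 87.2%). Cell 36 had 5075.5, the most of its group, and 1171 others (81.3%, 80.3% to 82.2%). Cell 46 had 758 and 302 (71.5%, 68.7% to 74.2%), the fewest UMIs of any cell. The 7 cells of this time thus ranged widely in Rn45s itself.

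The remaining cells of 10 h were cell 2 at 80.1%, cell 38 at 79.1%, cell 3 at 73.2% and cell 7 at 65.7%. In Rn45s UMIs, cells 2, 7, 38 and 46 of 10 h lay below their group's median of 1849, and cells 3, 17 and 36 above it. At 15 h, cell 1 had 5295 Rn45s UMIs and 699 others (88.3%, 87.5% to 89.1%). Cell 14 had 5646.5 and 1121 (83.4%, 82.5% to 84.3%). Both stood above their group's median of 3691.5 in Rn45s while having few UMIs of anything else.

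The 11 cells had at most 905 genes detected, against 2335 to 7864 in unheated cells. The part of depth in their high share was not tested.

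Not all cells of high share were of this kind. Of the 27 heated cells above the unheated maximum, 11 had other UMIs inside the unheated range. At 15 h, cell 6 had 11223 Rn45s UMIs and 31043 others (26.6%), and cell 7 had 11557 and 39647 (22.6%). Of these 27 cells, 26 had Rn45s UMIs within the unheated range.

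Most cells of low share had Rn45s UMIs within the unheated range. At 10 h, 3 of 52 cells had fewer than the lowest unheated cell, at 624 UMIs. Among them, cell 41 had 278.5 Rn45s UMIs and 9268 others (2.92%, 2.58% to 3.27%), and cell 51 had 157.5 and 4942 (3.09%, 2.64% to 3.61%). Cell 16, which was not, had 748 and 19970 (3.61%, 3.36% to 3.87%). The 1 low cell at 15 h, cell 2, had 1076.5 and 27621 (3.75%, 3.53% to 3.98%). The last 2 of these had other UMIs well inside the unheated range of 7135 to 78301.

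**Figure D3:**
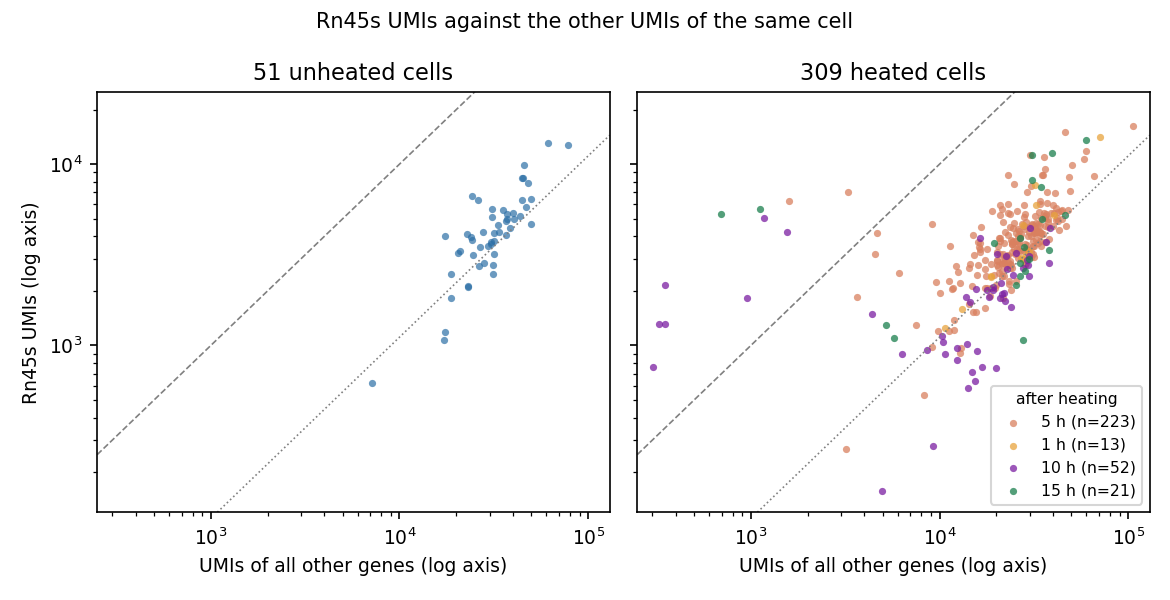
UMIs of Rn45s against UMIs of all other genes per cell (both log axes), for the 51 unheated cells and the 309 heated cells, with lines for shares of 10% (dotted) and 50% (dashed). Heated cells above the 50% line have 302 to 3280 other UMIs, while their Rn45s UMIs, 758 to 6987, overlap those of the other cells.

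Among unheated cells, those with more UMIs of other genes had more Rn45s. Spearman's rho between both counts was 0.49 to 0.89 in the unheated groups and 0.95, 0.70, 0.56 and 0.50 in the heated ones, by time. Both counts come from the same library and share its depth, so these are descriptions. The slope of log2 Rn45s on log2 other UMIs was 0.53 to 2.03 in unheated groups and 1.27, 0.59, 0.11 and 0.13 in the heated ones. It became 0.78, 1.06 and 0.87 at the last 3 times when cells with fewer than 1000 other genes were left out, which removed the same 11 cells. The low slopes at 10 and 15 h therefore rested on them.

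Over all cells of each group, the SD of log2 Rn45s UMIs was 0.43 to 1.16 in unheated groups and 0.94, 0.75, 1.02 and 1.05 at 1, 5, 10 and 15 h. That of log2 other UMIs was 0.35 to 0.88 in unheated groups and 0.70, 0.77, 1.85 and 1.69. At 10 and 15 h the other UMIs thus varied more between cells than Rn45s did, and this rested on the 11 cells. Without them the SDs at 10 h were 1.03 for Rn45s and 0.72 for the others, and at 15 h 1.10 and 0.87.

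Without these 11 cells, the mean share was 13.7%, 9.03% and 13.7% at 5, 10 and 15 h, against 14.3%, 18.1% and 20.6% with them. The mean of the control cells was 16.4%, 11.3% and 12.1%. At 10 h the heated cells thus stood above control by the mean of all cells and below it without the 7 cells. Without them the log2 ratio of summed shares was -0.25, -0.38 and 0.12, and the coefficient of variation was 38.2%, 44.3% and 44.5%. The cells still above the highest unheated one were then 13 at 5 h, 1 at 10 h and 2 at 15 h, while 8 at 10 h and 1 at 15 h stayed below the lowest.

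Other genes with ribosomal RNA sequence could follow Rn45s. Of 14 such genes listed, only Lars2 was in the table. Lars2 encodes the mitochondrial leucyl-tRNA synthetase, and a stretch of ribosomal RNA-like sequence is known in it. Mir6236 was not on that list and is given by the rule for genes most like Rn45s.

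For each 1000 UMIs of Rn45s, the groups held between 11.6 (45 °C 15 h) and 20.03 (45 °C 10 h) UMIs of Mir6236, in sums over cells. Lars2 held between 2.72 and 5.31. Across cells of a group, Spearman's rho between the UMIs of Mir6236 and of Rn45s was 0.60 to 0.95, and for Lars2 it was 0.63 to 0.94. Lars2 had the higher value at 37 °C 5 h (0.93 against 0.60) and 45 °C 15 h (0.92 against 0.87). These counts share the library's depth, and all other UMIs together gave 0.49 to 0.95 with Rn45s. Between each gene's share of the other UMIs and the Rn45s share, rho was 0.41 to 1.00 for Mir6236. For Lars2 it was 0.39 to 0.94. Each of both genes was at 0 in 1 of 360 cells. The 11 cells of highest Rn45s share ranged more widely than these sums, with 9.06 to 30.1 UMIs of Mir6236 and 1.32 to 8.19 of Lars2 for each 1000 of Rn45s.

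Between temperatures, Mir6236 had log2 ratios of 0.00, -0.22, 0.25 and -0.06 at 1, 5, 10 and 15 h and 0.25 before heating. Lars2 had 0.56, 0.58, -0.39 and 0.50, and 0.21 before heating. Neither was 2-fold apart at any time. Rn45s itself stood at 0.19, -0.23, -0.16 and 0.25, and at 0.06 before heating. The sign thus differed for Mir6236 at 10 and 15 h and for Lars2 at 5 h. How molecules were divided between these genes and Rn45s was not tested.

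**Figure D4:**
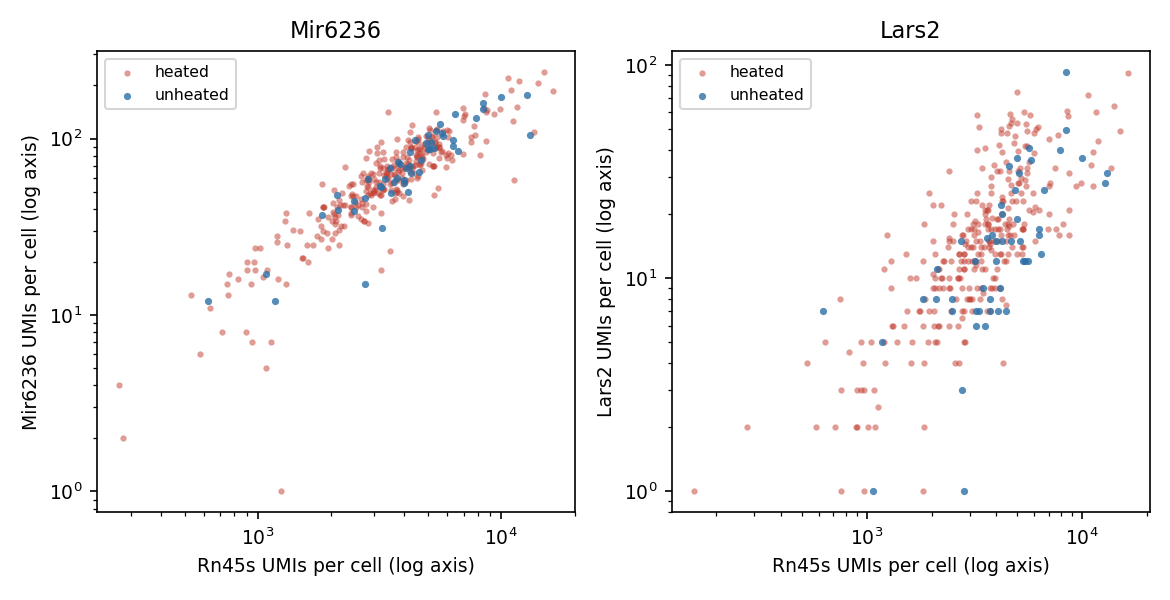
UMIs of Mir6236 and of Lars2 per cell against UMIs of Rn45s (log axes), for heated and unheated cells. Cells at 0 are left out, 1 for each gene. Within groups, cells with more Rn45s UMIs tended to have more of both genes, but all these counts share the library's depth. The sums of the groups held 11.6 to 20.03 UMIs of Mir6236 and 2.72 to 5.31 of Lars2 for each 1000 of Rn45s.

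The genes most like Rn45s among the heated cells at 5 h were found by Spearman's rho between the Rn45s share and each gene's share of the remaining UMIs, over 2064 genes with a UMI in at least 80% of cells. Their median rho was -0.04. The highest were Mir6236 at 0.79 and Lars2 at 0.52. Malat1 followed at 0.39, then Atrx, which encodes a chromatin remodeler, at 0.37, and Acin1, which encodes a nuclear factor of RNA splicing, at 0.33. The 6 predicted genes among them were passed over.

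At the low end stood Rps23, a ribosomal protein gene, at -0.34, Ahsa1, which encodes an activator of HSP90, at -0.32, and Atp5l, an ATP synthase gene, at -0.31. Pfdn5, a prefoldin gene, and Snrpb, which encodes a core protein of spliceosomal particles, were both at -0.31. Apart from Mir6236 and Lars2 these are weak correlations of cells that share their library's depth and are no more than a ranking.

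Among the 52 heated cells at 10 h, 880 genes were ranked in the same way, with a median rho of -0.26. Mir6236 at 0.87 and Lars2 at 0.73 again stood highest, followed by Rn4.5s, a small rodent RNA made by RNA polymerase III, at 0.46 and the ribosomal protein genes Rpl36 at 0.46 and Rpl35 at 0.44. Without the 7 cells of under 1000 other genes these were 0.80, 0.58, 0.20, 0.27 and 0.53. Rn4.5s thus leaned on those cells.

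The lowest at 10 h were Cdc34, a ubiquitin-conjugating enzyme gene, at -0.72, Psma4, a proteasome subunit gene, at -0.66, and Cdk4, a cell cycle kinase gene, at -0.63. Csk, a kinase gene acting on Src family kinases, was at -0.63, and Hspa8, the constitutive HSP70 gene, at -0.62. Without the same 7 cells they stood at -0.57, -0.48, -0.44, -0.44 and -0.49.

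Over the 10 groups, likeness was taken as Pearson's r on log2 of summed CPM without Rn45s, after adding 10 CPM, over 2800 genes. Tulp4 stood highest at 0.91, followed by Eif3a, a translation initiation factor gene, at 0.88, and Ddx21, a nucleolar helicase gene of ribosome production, at 0.86. Psmd6, a proteasome gene, and Prmt5, an arginine methyltransferase gene, were both at 0.84. The lowest were Gnptg at -0.86, Flna, which encodes an actin crosslinker, at -0.85, Sri at -0.84, Cks1b at -0.84 and Dusp11, which encodes an RNA phosphatase, at -0.81.

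Ddx21 reached its highest level, 578 CPM, in the 37 °C cells at 5 h, where Rn45s was highest, and its lowest, 330.0 CPM, in the 45 °C cells at 10 h, where Rn45s was lowest. Eif3a ran from 758 CPM in the 37 °C cells before heating to 1210.5 CPM at 37 °C 5 h. Without the 37 °C 5 h group, the 5 highest stood at 0.91, 0.82, 0.78, 0.74 and 0.74, and the 5 lowest at -0.79, -0.82, -0.80, -0.75 and -0.70. With 10 points and 2800 genes, values of this size are a ranking only.

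RNA polymerase I and its factors transcribe Rn45s, and 22 of 25 listed genes were in the table. Before heating, 5 of 18 measured members were higher in the 45 °C arm and 13 lower (median -0.09, against 0.01 for all genes). Of these, 2 were 2-fold higher (background 2.58%) and 0 were 2-fold lower (background 4.52%). At 1 h, 6 of 19 measured members were higher and 13 lower (median log2 ratio -0.16, against -0.14 for all genes), 0 were at least 2-fold higher (background 1.44%) and 1 was 2-fold lower (background 6.3%). The 1 was Cd3eap, a polymerase I subunit gene, at 50.6 against 108.7 CPM (-1.09, -1.92 to -0.33).

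At 5 h, 7 of 21 members were higher and 14 lower (median -0.18, against -0.23 for all genes). Of these, 1 was at least 2-fold higher (background 6.22%) and 2 were 2-fold lower (background 15.2%). Ttf1, which ends polymerase I transcription, stood at 1.49 (0.29 to 3.54), from 4 control UMIs. Taf1c, of the promoter selectivity factor, stood at -1.55 (-2.58 to -0.10) and Tbp, the TATA-binding protein gene, at -1.07 (-1.89 to 0.03).

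At 10 h, 7 of 21 were higher and 14 lower, at a median of -0.44 when all genes stood at 0.00. Taf1d stood 2-fold higher at 1.16 (background 11.9%), and 2 of 21 were 2-fold lower (background 7.22%). The 2 were Polr1b, which encodes the second largest polymerase I subunit, at -1.16 (-2.22 to 0.10), and Polr2l, a subunit gene shared by the nuclear polymerases, at 181.7 against 404 CPM (-1.16, -1.56 to -0.73). At 15 h the members were split evenly, 10 and 10, at a median of 0.02, and 0 of 20 were 2-fold apart (background 4.0% higher and 2.17% lower).

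Factors that process and modify the precursor made up the longest of these lists, with 71 of 74 genes in the table. At 1 h, 25 of 69 were higher and 44 lower (median -0.14, the same as all genes). Of these, 1 was 2-fold lower (background 6.3%), namely Imp3, of the small subunit processome, at -1.12 (-1.86 to -0.44). At 5 h, 15 of 71 were higher and 56 lower (median -0.32, against -0.23 for all genes). Rpp40 was 2-fold higher at 1.20 on 2 control UMIs, and Rpp38 and Rrp12 were 2-fold lower at -2.38 and -1.15. That is 1 of 71 higher (background 6.22%) and 2 of 71 lower (background 15.2%), both under the background.

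At 10 h, 13 of 69 were higher and 56 lower, at a median of -0.36 against 0.00 for all genes. Of these, 0 were 2-fold higher (background 11.9%) and 8 of 69 were 2-fold lower (background 7.22%). Bop1, which acts in large subunit assembly, was at 61.2 against 132.7 CPM (-1.14, -1.83 to -0.36), Heatr1, of the small subunit processome, at 38.8 against 86.6 CPM (-1.19, -2.05 to -0.19), and Nat10, an RNA acetyltransferase gene, at 16.3 against 46.2 CPM (-1.54, -2.81 to -0.07). Each rested on 23 or fewer control UMIs, and the control had 6 cells.

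The most abundant members were closer to control. Ncl, which encodes nucleolin, was at 2195 against 1979 CPM at 1 h, 2166.5 against 2448 CPM at 5 h, 1368 against 1985 CPM at 10 h (-0.54, -0.71 to -0.36) and 1817 against 2234 CPM at 15 h. Npm1, which encodes nucleophosmin, was at 1798 against 1688 CPM, 2123 against 1963 CPM, 1558 against 1651 CPM and 1537 against 1997 CPM. Nop58, of the box C/D particles that guide methylation, stood at 0.15, -0.11, 0.14 and 0.03. The interval of Ncl lay wholly under 0 at 5, 10 and 15 h, and that of Npm1 at 15 h. Both also lay wholly under 0 before heating, at -0.25 for Ncl (-0.43 to -0.08) and -0.25 for Npm1 (-0.43 to -0.08). At 15 h the list stood at -0.13 with 24 of 70 higher and 46 lower. Before heating it already stood at -0.11 with 27 of 69 higher and 42 lower, when all genes stood at 0.01. Of those, 3 were 2-fold higher (background 2.58%) and 5 were 2-fold lower (background 4.52%). At 15 h Utp4 alone, 1 of 70, was 2-fold lower at -1.38 (background 2.17%).

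The nuclear exosome and 5′ to 3′ decay factors trim and degrade the precursor's spacers. Before heating, 7 of 20 measured members were already higher in the 45 °C arm and 13 lower (median -0.13, against 0.01 for all genes). Of these, 0 were 2-fold higher (background 2.58%) and 2 were 2-fold lower (background 4.52%). After heating, 7, 5, 7 and 7 of the 20 were higher at 1, 5, 10 and 15 h and 13, 15, 13 and 13 lower. Their medians were -0.25, -0.23, -0.14 and -0.08, when all genes stood at -0.14, -0.23, 0.00 and -0.02. At 5 h 3 of 20 were at least 2-fold lower (background 15.2%) and 1 was 2-fold higher (background 6.22%), and at 10 h 1 was in each direction (background 7.22% lower and 11.9% higher). At 5 h Exosc4 and Exosc6, 2 subunit genes of the exosome, stood at -1.57 (-2.18 to -0.84) and -1.47 (-1.99 to -0.85), and Exosc6 was also lower at 1 h, at -1.48. C1d stood at -1.31 at 5 h. Those higher were Zcchc7 at 1.18 at 5 h (-0.38 to 4.56), on 2 control UMIs, and Papd5, a poly(A) polymerase gene, at 1.35 at 10 h (0.20 to 3.14), on 5. Exosc2 stood at 0.64 at 5 h and at -1.02 at 10 h.

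Genes that silence ribosomal DNA were few. At 5 h, 4 of 11 were higher and 7 lower at a median of -0.06, above the -0.23 of all genes. Of these 1 was 2-fold lower (background 15.2%), namely Baz2a, which encodes the silencing factor TIP5 and was at 51.1 against 104.6 CPM (-1.09, -1.64 to -0.43). At 10 h, 8 of 10 were higher and 2 lower at a median of 0.31, against 0.00 for all genes. Of these 1 was 2-fold lower (background 7.22%), namely Rrp8, of a silencing complex that senses energy, at -1.10 (-2.02 to -0.03).

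Genes of the finished ribosome, the cytosolic ribosomal proteins, were compared as partners of ribosomal RNA. Of 83 measured, 50 were higher and 33 lower at 1 h, 75 and 8 at 5 h, 69 and 14 at 10 h, and 38 and 45 at 15 h, at medians of 0.03, 0.25, 0.20 and -0.01. At 5 h, 1 of them was 2-fold lower (background 15.2%). At 1, 10 and 15 h 0 were 2-fold apart, against 7.74%, 19.1% and 6.18% of all measured genes. At 5 and 10 h these genes stood mostly above control while the summed share of Rn45s stood below it, at -0.23 and -0.16. That direction of Rn45s depended on the control at 5 h. It was 0.12 over all unheated cells and 0.19 over the 45 °C arm before heating. At 10 h Rn45s stayed lower by the median over cells (-0.31) and against all unheated cells (-0.24), but the mean over cells gave 0.68.

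Of the RNAs made by RNA polymerase III, 3 of 3 measured were at least 2-fold higher at 1 h (background 1.44%) and 4 of 5 at 5 h (background 6.22%). At the later times 1 of 2 (background 11.9%) and 2 of 2 (background 4.0%) were. Those under 2-fold were Bc1 at 0.19 at 5 h and Rpph1, the RNA of ribonuclease P, at 0.44 at 10 h. After heating, only Rn4.5s reached the limit of 20 UMIs in control cells alone. The other members had few control UMIs and counted as measured only through the heated cells. Being measured could thus favour higher members, so these counts cannot be weighed against the background. Rn4.5s was at 12951 against 155.4 CPM at 1 h, when the share of Rn45s was 13.3% against 11.6%. It was at 5994 against 468 CPM at 5 h, 577 against 164.5 CPM at 10 h and 2233 against 580 CPM at 15 h. Before heating it was at 111.5 against 338 CPM, which is lower in the 45 °C arm (-1.60). After heating Rn45s thus stayed within 2-fold where Rn4.5s was far above control.

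**Figure D5:**
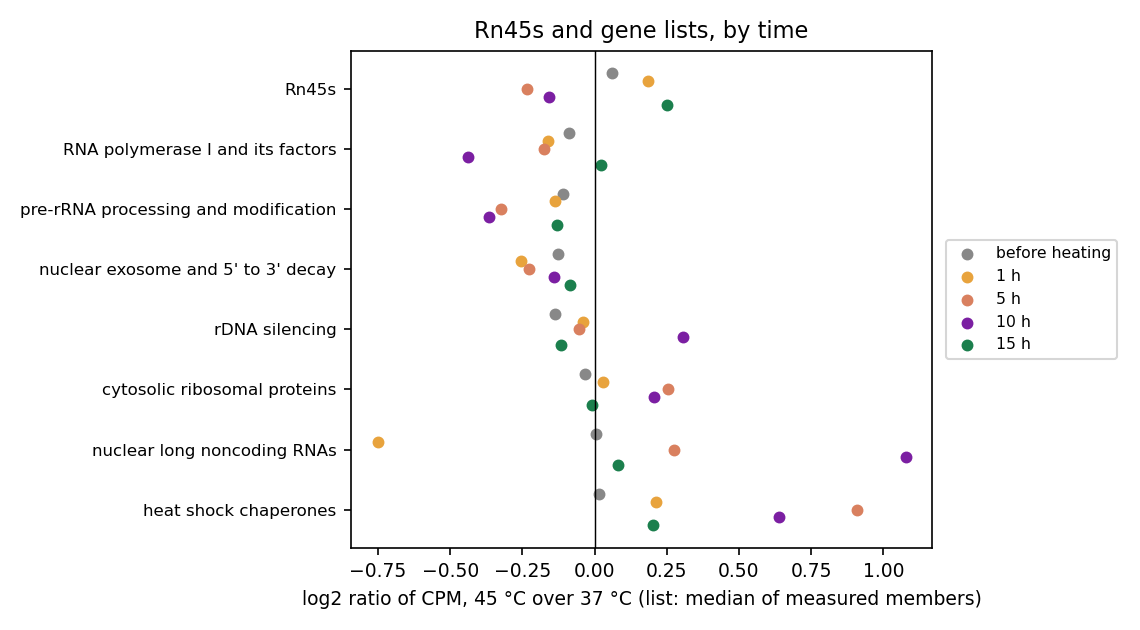
Log2 ratio of 45 °C over 37 °C cells (horizontal axis) for Rn45s and for the median of the measured genes of each list, by time. Rn45s lies between -0.23 and 0.25 at all times, and the list medians of RNA polymerase I and of precursor processing lie lowest at 10 h, at -0.44 and -0.36, while that of the heat shock chaperones is highest at 5 h, at 0.91.

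Among heated cells, the summed share of each list in the UMIs left after taking out Rn45s was set beside the Rn45s share by Spearman's rho. For RNA polymerase I and its factors, rho was -0.06, 0.06 and -0.46 at 5, 10 and 15 h. For the processing factors it was 0.06, 0.01 and 0.02, and for heat shock chaperones 0.03, 0.02 and 0.34. The values of the processing genes thus lay near 0 at each of these times.

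The list named nuclear long noncoding RNAs also holds host genes of small nucleolar RNAs. It gave higher values than the lists above, with rho of 0.30, 0.51 and 0.55. Without cells of under 1000 other genes these were 0.28, 0.44 and 0.60. Malat1 alone stood at 0.39, 0.28 and 0.47 at these times and at 0.74 in the 13 cells at 1 h. In the unheated groups, of 6 or 11 cells each, Malat1 ran from -0.27 (37 °C 1 h) to 0.66 (45 °C before). The list had a median log2 ratio of 1.08 at 10 h, with 10 of 13 higher and 8 of 13 at least 2-fold higher (background 11.9%). Of these 8, 7 were such host genes (Gas5, Snhg1, Snhg3, Snhg5, Snhg8, Snhg12 and Zfas1, from 1.05 to 1.43). The other was Neat1, which scaffolds paraspeckles, at 1.62, while Malat1 stood at 0.45. Of the 8, only Gas5 and Zfas1 reached 20 UMIs in control cells, while Neat1 rested on 5 and Snhg12 on 7. Being measured could thus favour higher members, so this count cannot be weighed against the background. At 1 h the median was -0.75, with 11 of 12 lower, and Malat1 stood at -0.98 at that time and at -0.86 before heating. Ribosomal proteins gave -0.16, 0.00 and -0.31. Without the cells of under 1000 other genes these became -0.14, 0.46 and -0.08. The values at 10 and 15 h thus depended on those cells, 7 at 10 h and 2 at 15 h. The RNAs made by RNA polymerase III gave 0.30, 0.46 and 0.38, or 0.28, 0.17 and 0.18 without such cells. Lars2 alone gave 0.52, 0.73 and 0.94. In each case depth is part of both measures.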

How the data were processed

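The authors deposited 1 table of estimated counts (UMIs) that were not normalized, in which each of 360 columns is 1 sample. Per the submitters' processing notes, STAR and the mouse build mm10 were used. Not given in the sources used here were their versions, the counting program, the annotation and any filter on cells. The plan assumed whole counts, and sums were rounded to whole numbers. Cells had between 1060 and 122196 UMIs in all, and 0 pairs of columns were identical.

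UMIs were summed by group. Log2 ratios were taken after adding 0.5 UMI, with exact conditional binomial 95% intervals. Shares of cells have Clopper-Pearson intervals. With 1 sample a group there was no test. Genes most like Rn45s were the 5 highest and 5 lowest by each measure, and list members named were the 3 with most UMIs and those 2-fold apart, up to 4 a list and time. Where more are named, they were chosen after their values were seen. Rn45s and all lists were chosen with earlier results of these data known. Calculations used Python 3.11.15, pandas 2.3.3 and SciPy 1.17.1 and were tested on simulated data. Alternatives covered means, medians, other controls, depth limits and single cells left out. The sequence of Mir6236 is not reported here.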

Additional observations from a re-analysis of the deposited data

How the results depend on the processing

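No paired analysis was possible because the numbers shared by the groups only count cells, and each result comes from no test. All log2 ratios are 45 °C over 37 °C. For the share, the mean over cells gave -0.037 before heating and 0.11, -0.20, 0.68 and 0.76 at 1, 5, 10 and 15 h, turning the direction before heating and at 10 h, and the median gave 0.10, 0.077, -0.37, -0.31 and 0.20. With Rn45s left out of the total, 1, 5 and 15 h stood at 0.21, -0.27 and 0.29. Against all unheated cells the 4 times stood at 0.086, 0.12, -0.24 and 0.31, and against the 45 °C arm before heating 1, 5 and 15 h stood at 0.16, 0.19 and 0.39. Cells of at least 5000 UMIs gave -0.25 at 10 h, and cells of at least 1000 other genes, an alternative chosen after seeing the data, gave -0.25, -0.38 and 0.12 at 5, 10 and 15 h. Leaving out single cells gave -0.13 to 0.17 before heating, 0.094 to 0.24 at 1 h, -0.35 to -0.16 at 5 h, -0.24 to -0.025 at 10 h and 0.18 to 0.36 at 15 h.

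For Rn45s UMIs per cell, the mean gave -0.25, 0.082, -0.65, -0.77 and -0.090, turning the direction at 1 h, and cells of at least 5000 UMIs gave -0.80 at 10 h. Leaving out single cells gave -0.89 to -0.12, -0.50 to -0.30, -0.77 to -0.75, -0.91 to -0.81 and -0.21 to -0.11. Without a filter on low values, 2825, 5643, 2760 and 2088 genes were at least 2-fold apart, against 408, 1630, 1230 and 6.18% of 6346 with it, since genes of few UMIs entered. The rho between the share and the other UMIs, -0.19 at 5 h and -0.28 at 10 h, was 0.70 and 0.56 with Rn45s UMIs in place of the share, -0.21 and -0.023 in cells of at least 5000 UMIs and -0.17 and 0.11 in cells of at least 1000 other genes. The coefficient of variation of 54.2% at 5 h became 38.2% in cells of at least 1000 other genes. That of 130.8% at 10 h became 121.3% with at least 5000 UMIs, 121.5% with thinning and 44.3% with at least 1000 other genes. Apart from the filters that remove cells or genes, the cause was not tested. Control groups of 6 cells at 5 and 10 h limit every ratio at those times.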
